A study of Mus musculus with 9 samples.

Results

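The 54 genes described here are interferon-stimulated genes, which cells switch on when interferon binds its receptors, together with genes that cut and load peptides for antigen presentation. They were chosen by name, with their lower level in cultures given the autotaxin inhibitor HA155 than in vehicle cultures already known from these same arrays. Of the 54, 50 had a probe set that the array annotation ties to a single gene symbol, among 19858 such genes in all, and 46 were bright enough to be tested, among 13335 genes tested. Isg15, Gbp2 and Igtp lie only on probe sets shared by several symbols, and Ifi44 was not matched to a probe set. The levels of these 4 were therefore not analysed here, but their promoters were searched. Oas3, Mx1, Mx2 and Cmpk2 lay below the intensity filter.

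The study measured total RNA of 9 primary cultures of interscapular brown fat from male C57BL/6 mice, labelled as 5 weeks old, on Affymetrix mouse gene arrays. Precursor cells from the tissue were grown and differentiated with insulin, and cultures were given HA155 at 2.5 µM, 1-oleoyl lysophosphatidic acid (LPA) at 5 µM, or DMSO, the vehicle, as control. The labels place the treatment at 9 days in vitro and the design text places it within differentiation, so how long the cells were exposed is unsettled here. There were 3 cultures in each group, numbered in the labels as HA155 4 to 6, LPA 7 to 9 and control 1 to 3. Autotaxin is a secreted enzyme that makes LPA, a signalling lipid, so the study asked which genes answer to blocking that enzyme and which to adding its product. Adipocyte markers were bright in all groups: Adipoq (adiponectin, a hormone of fat cells) had 11.90, 11.82 and 11.99 in HA155 cultures, 10.46, 10.38 and 10.34 in LPA cultures and 11.70, 11.70 and 11.84 in control cultures on the log2 intensity scale, on which 1 unit is a factor of 2. The LPA cultures lay below both other groups there. Array medians ran from 70.7 to 72.8 in intensity, and 1 culture of the LPA group, LPA 8, had the lowest estimated array weight (0.253, against 2.22 for HA155 4, the highest).

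Interferons signal through receptor pairs whose JAK kinases phosphorylate STAT proteins. Type I interferon does so mainly through ISGF3, a complex that includes STAT2 and IRF9 and binds a DNA element called ISRE, and interferon gamma mainly through a GAS element. The products block viral RNA at several steps, restrict intracellular microbes or raise antigen presentation, and in many tissues low tonic signalling keeps a basal level of them without infection. Adipocytes and their precursors can carry out this response.

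Of the 46 genes tested, 20 were called lower with HA155 than with vehicle, beside 0.427% of all genes tested. With LPA, 5 were called higher and 1 lower than with vehicle, beside 12.2% and 10.8% of all genes tested. Ifit1, whose product binds viral RNA with an incomplete cap, had the largest difference, 3.08-fold lower in HA155 cultures. Rtp4, a chaperone of membrane receptors, was 2.4-fold lower and Oasl2, an OAS-like protein, 2.31-fold lower. The antigen-processing genes had small differences, apart from Ifi30, a lysosomal reductase that opens disulfide bonds of antigens. With LPA, Slfn5 rose 1.5-fold and Iigp1 fell 1.54-fold against vehicle.

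The members' counts for HA155 rest on the contrast by which they were selected and are a description. Of the 46 tested, 20 were lower and 0 higher at an adjusted p under 0.05 in the limma fit of all genes, where 0.427% of all genes tested were called lower and 0.607% higher. At an unadjusted p under 0.05, 36 of the 46 passed. The change was below 0 in 43 of 46 and ran from -1.62 to 0.06, with a median of -0.41, beside a median of 0.0018 over all genes tested. In 36 of 46, every HA155 culture lay below every control culture, as it did in 7.9% of all genes tested. Ddx60 and Rsad2 are among these 36, although their HA155 means lay below the intensity filter. Ddx60 is also among the 20 called. Of the 10 genes with the largest falls among all 13335, 9 were members, and of the 100 with the largest falls 29 were. The count of 20 depended on single cultures: it was 3 without control 2, 9 without control 1, 7 without HA155 4, 6 without HA155 5 and 12 without HA155 6. The median moved less, between -0.49 and -0.33 over the fits that each left out 1 culture. Irf7, Bst2 and Rtp4 were called in all 18 alternative fits, and the other 17 calls were lost in at least 1. Gbp7 was lost in 11 of 18, Slfn8 in 11 of the 17 in which it was tested, and Zc3hav1 in 9 of 18. In whole cultures, fewer cells that express a gene and less RNA per cell cannot be told apart, and the p-values measure only the spread between these cultures.

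**Figure D1:**
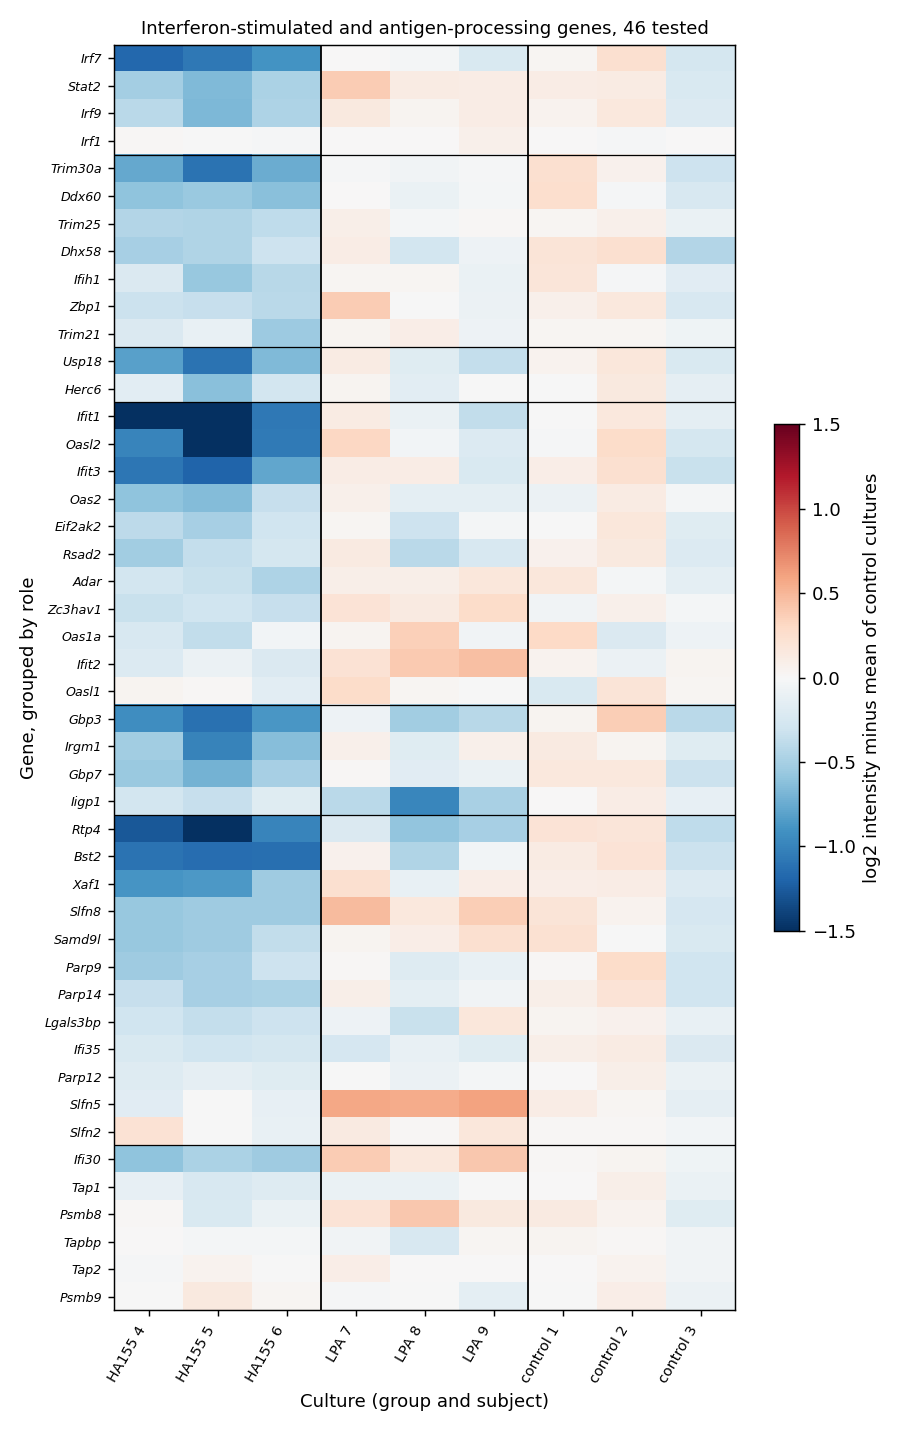
Log2 intensity of each of the 46 tested genes in each of the 9 cultures (columns: HA155, LPA, control), as the difference from the mean of the control cultures, with genes grouped by role and sorted by their change with HA155 within a role. Blue is below and red above that mean, with the colour scale ending at 1.5 either way. The HA155 columns are blue for most genes, with medians of -0.40, -0.48 and -0.38, and the LPA columns hold both colours, with medians of 0.07, -0.04 and -0.03.

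To show what the promoters of these genes share, the 250 bases before each start in RefSeq's annotation of GRCm38.p6 were searched on both strands for the core of the ISRE, written GAAANNGAAA, with matches that overlap each other counted. The core was present for 17 of the 43 members in that promoter table (39.5%), beside 3.46% of all 27025 genes in it and 2.98% of all promoters. The 27 cores found lay a median of 56 bases before the start. The GAS letters, TTCNNNGAA, were present for 8 of the 43 (18.6%), beside 8.13% of all genes and 7.02% of all promoters. As a description only, since the members were chosen on that change, the 13 tested members with an ISRE core had a median HA155 change of -0.59, against -0.33 for the 24 tested members in the table without it. For the GAS letters the order was the other way, with a median of -0.22 for the 7 tested members with them and -0.42 for those without. With LPA the medians were -0.03 with and 0.02 without the ISRE core. A match is a match of letters and not a measured binding site, and its absence says only that these letters are not in this window. Members not in the table are Dhx58, Zbp1, Usp18, Oas2, Mx1, Mx2, Iigp1, Rtp4, Parp9, Parp14 and Tap2.

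The 6 stretches shown are from the members with a core and the largest HA155 changes, each read 5′ to 3′ in the gene's direction, with the core letters (on either strand) in capitals. Ifit1 is at chr19:34640765-34640833, plus strand, Bst2 at chr8:71537567-71537622, minus strand, Ifit3 at chr19:34583353-34583436, plus strand, Gbp3 at chr3:142559979-142560034, plus strand, Trim30a at chr7:104465200-104465249, minus strand and Irgm1 at chr11:48871421-48871470, minus strand.
Ifit1: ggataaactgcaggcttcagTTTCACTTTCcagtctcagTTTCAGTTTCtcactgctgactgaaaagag
Bst2: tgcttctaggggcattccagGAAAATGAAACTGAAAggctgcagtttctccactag
Ifit3: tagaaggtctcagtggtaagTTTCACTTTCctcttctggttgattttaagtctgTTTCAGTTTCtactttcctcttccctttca
Gbp3: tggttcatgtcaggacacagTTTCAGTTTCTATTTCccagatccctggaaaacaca
Trim30a: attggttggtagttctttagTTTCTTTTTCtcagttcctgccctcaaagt
Irgm1: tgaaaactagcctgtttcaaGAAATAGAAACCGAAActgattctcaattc
Ifit1, Ifit3, Bst2, Gbp3 and Irgm1 each hold 2 cores, and those of Bst2, Gbp3 and Irgm1 overlap. Trim30a holds 1. The core nearest the start ended 14 bases before it in Irgm1 and 114 bases before it in Bst2, the extremes of the 6.

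The regulators of the response were lower with HA155 in 3 of 4. Irf7, the transcription factor that amplifies type I interferon genes, had 6.69, 6.79 and 6.96 in HA155 cultures, 7.87, 7.84 and 7.64 in LPA cultures and 7.89, 8.10 and 7.60 in control cultures. All HA155 cultures lay below all others, at a log2 change of -1.05 ± 0.12 (log2 change ± SE, n = 3 each) against control. Stat2, a subunit of ISGF3, had 8.28, 8.13 and 8.32 in HA155 cultures, 9.17, 8.91 and 8.89 in LPA cultures and 8.89, 8.91 and 8.56 in control cultures. Irf9, the DNA-binding subunit of ISGF3, had 7.36, 7.09 and 7.30 in HA155 cultures, 7.90, 7.80 and 7.87 in LPA cultures and 7.81, 7.91 and 7.55 in control cultures. Both were lowest in every HA155 culture, at a log2 change of -0.54 ± 0.11 for Stat2 and -0.51 ± 0.10 for Irf9. The call was lost in 8 of 18 alternative fits for Stat2 and in 9 of 18 for Irf9. Irf1, a factor known for its answer to interferon gamma, had 7.66, 7.62 and 7.61 in HA155 cultures, 7.64, 7.64 and 7.71 in LPA cultures and 7.64, 7.62 and 7.64 in control cultures, with a change of -0.0039 ± 0.05 with HA155. Its 9 values overlapped across all groups. With LPA none of the 4 passed the test against control, and their changes ran from -0.08 to 0.20.

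Of 7 RNA and DNA sensors and TRIM ligases, 3 were lower with HA155. Trim30a, a mouse TRIM protein that dampens Toll-like receptor signalling, had 7.49, 7.15 and 7.51 in HA155 cultures, 8.24, 8.20 and 8.24 in LPA cultures and 8.50, 8.32 and 7.95 in control cultures. Trim25, the ligase that ubiquitinates the RNA sensor RIG-I, had 7.65, 7.64 and 7.71 in HA155 cultures, 8.18, 8.05 and 8.11 in LPA cultures and 8.12, 8.17 and 7.99 in control cultures. Ddx60, a helicase linked to RIG-I signalling, had 5.55, 5.59 and 5.53 in HA155 cultures, 6.16, 6.05 and 6.11 in LPA cultures and 6.41, 6.13 and 5.91 in control cultures. In each of the 3 the HA155 cultures lay apart below the other groups, at a log2 change of -0.87 ± 0.13, -0.43 ± 0.06 and -0.59 ± 0.10 in that order. Ddx60 passed the intensity filter of 5.59 only through its LPA and control levels. Its HA155 mean of 5.555 lay below that filter, where signal is close to background. Ifih1, which encodes the RNA sensor MDA5, had 7.11, 6.76 and 6.91 in HA155 cultures, 7.35, 7.36 and 7.22 in LPA cultures and 7.51, 7.31 and 7.16 in control cultures. Zbp1, a sensor of Z-form nucleic acids, had 6.76, 6.74 and 6.67 in HA155 cultures, 7.46, 7.07 and 7.00 in LPA cultures and 7.16, 7.24 and 6.84 in control cultures. Trim21, a cytosolic antibody receptor and ligase, had 6.88, 6.97 and 6.54 in HA155 cultures, 7.13, 7.18 and 7.01 in LPA cultures and 7.12, 7.12 and 7.03 in control cultures. All HA155 cultures were below all controls in these 3 too, but their changes of -0.40 ± 0.10, -0.36 ± 0.13 and -0.29 ± 0.10 did not pass. Dhx58, the sensor LGP2, had 6.48, 6.53 and 6.67 in HA155 cultures, 7.09, 6.71 and 6.90 in LPA cultures and 7.18, 7.22 and 6.55 in control cultures, and its control 3 lay within the HA155 range. None of the 7 passed with LPA against control, with a median change of -0.02.

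The ISG15 system attaches a ubiquitin-like protein to others. Usp18, which removes it and also restrains the type I receptor, had 6.40, 6.11 and 6.56 in HA155 cultures, 7.34, 7.03 and 6.85 in LPA cultures and 7.28, 7.39 and 6.99 in control cultures. The HA155 cultures lay below the rest, at a log2 change of -0.86 ± 0.15. Herc6, the ligase of the system in mice, had 6.31, 5.84 and 6.19 in HA155 cultures, 6.50, 6.31 and 6.46 in LPA cultures and 6.46, 6.61 and 6.33 in control cultures, and its change of -0.35 ± 0.12 did not pass although all HA155 cultures were below all controls. LPA changes were -0.14 ± 0.15 and -0.04 ± 0.12 against control, neither of which passed.

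The IFIT and OAS families and other RNA-acting effectors held the largest single difference and also several genes whose groups overlapped. Ifit1 had 6.68, 6.10 and 7.22 in HA155 cultures, 8.41, 8.19 and 7.92 in LPA cultures and 8.28, 8.45 and 8.14 in control cultures. Its HA155 cultures lay below all others and spread over more than 1 log2 unit, with a difference of -1.62 ± 0.23. Ifit3, a related RNA-response gene, had 6.24, 6.12 and 6.55 in HA155 cultures, 7.43, 7.44 and 7.11 in LPA cultures and 7.43, 7.56 and 6.99 in control cultures, a difference of -1.02 ± 0.15 with no overlap between HA155 and the other groups. Ifit3 has a near-identical copy, Ifit3b, so its signal may hold both. Ifit3b also has a probe set of its own, below the filter, with means of 5.035 with HA155, 5.49 with LPA and 5.548 in control. Ifit2, next to Ifit3 on chromosome 19, had 6.31, 6.43 and 6.30 in HA155 cultures, 6.74, 6.91 and 6.97 in LPA cultures and 6.57, 6.43 and 6.56 in control cultures. Its HA155 5 and control 2 cultures were level at 2 decimals, with a change of -0.17 ± 0.07, and its LPA cultures lay above all others.

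Oasl2 had 7.28, 6.70 and 7.21 in HA155 cultures, 8.58, 8.23 and 8.06 in LPA cultures and 8.25, 8.55 and 8.00 in control cultures, with HA155 cultures apart below, at a log2 change of -1.21 ± 0.18. Oasl1, its neighbour on chromosome 5, had 6.63, 6.61 and 6.43 in HA155 cultures, 6.86, 6.62 and 6.58 in LPA cultures and 6.36, 6.78 and 6.62 in control cultures. All groups overlapped for Oasl1, with a change of -0.03 ± 0.11. Oas2, which makes the oligoadenylates that activate RNase L, had 5.59, 5.55 and 5.85 in HA155 cultures, 6.27, 6.05 and 6.06 in LPA cultures and 6.10, 6.32 and 6.17 in control cultures and was lower in each HA155 culture, at a log2 change of -0.53 ± 0.10. Oas1a, another synthetase with the close copy Oas1g, had 5.74, 5.62 and 5.94 in HA155 cultures, 6.02, 6.34 and 5.93 in LPA cultures and 6.28, 5.77 and 5.91 in control cultures, where HA155 and control overlapped. Zc3hav1, the antiviral protein ZAP that binds CpG-rich RNA, had 7.74, 7.77 and 7.72 in HA155 cultures, 8.28, 8.21 and 8.35 in LPA cultures and 8.02, 8.15 and 8.05 in control cultures. It ran in the order HA155, control, LPA with no overlap, and HA155 lay below control, at a log2 change of -0.33 ± 0.06. Adar, the RNA-editing enzyme ADAR1, had 7.75, 7.69 and 7.56 in HA155 cultures, 8.11, 8.11 and 8.19 in LPA cultures and 8.20, 7.99 and 7.88 in control cultures, and its change of -0.36 ± 0.08 did not pass though every HA155 culture lay below every control.

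Eif2ak2 (the RNA-activated kinase PKR) and Rsad2 (viperin) had log2 changes of -0.39 ± 0.11 and -0.38 ± 0.13 with HA155 and did not pass. Like Ddx60, Rsad2 passed the intensity filter of 5.59 only through its LPA and control levels, with an HA155 mean of 5.543. Among the genes below the filter, Mx2, a dynamin-like GTPase, had 4.33, 4.21 and 4.45 in HA155 cultures, 5.33, 4.95 and 4.86 in LPA cultures and 5.03, 5.41 and 4.86 in control cultures. Its HA155 cultures were below all others, at levels where a probe set is close to background. Cmpk2, the nucleotide kinase beside Rsad2, had group means of 5.00 with HA155, 5.30 with LPA and 5.61 in control. Mx1 averaged 4.19 with HA155, 4.21 with LPA and 4.40 in control, and Oas3 averaged 5.17 with HA155, 5.28 with LPA and 5.12 in control. These 4 were not tested.

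Guanylate-binding proteins and immunity-related GTPases act on membranes around intracellular microbes. Gbp3 had 7.96, 7.78 and 8.02 in HA155 cultures, 8.82, 8.37 and 8.49 in LPA cultures and 8.93, 9.26 and 8.50 in control cultures. Gbp7, the next gene on chromosome 3, had 7.21, 7.06 and 7.27 in HA155 cultures, 7.79, 7.60 and 7.67 in LPA cultures and 7.93, 7.93 and 7.45 in control cultures. Irgm1, a regulatory GTPase of that family, had 7.19, 6.71 and 7.08 in HA155 cultures, 7.79, 7.53 and 7.79 in LPA cultures and 7.85, 7.76 and 7.53 in control cultures. In all 3 the HA155 cultures lay below both other groups, at a log2 change of -0.98 ± 0.17, -0.59 ± 0.12 and -0.72 ± 0.13 against control. Iigp1, an effector GTPase, had 9.35, 9.28 and 9.45 in HA155 cultures, 9.22, 8.64 and 9.13 in LPA cultures and 9.63, 9.74 and 9.50 in control cultures. It was the exception: LPA cultures were the lowest, HA155 cultures lay between, and control cultures were the highest, with no overlap. Its HA155 change was -0.26 ± 0.13, which did not pass.

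Of 12 membrane-associated, PARP, Schlafen and other induced proteins, 4 were lower with HA155. Bst2, or tetherin, which holds budding virions at the cell surface, had 8.22, 8.19 and 8.20 in HA155 cultures, 9.40, 8.88 and 9.29 in LPA cultures and 9.46, 9.53 and 9.00 in control cultures. Its HA155 cultures were nearly equal and lay below all others, at a log2 change of -1.13 ± 0.15. Rtp4 had 7.34, 7.08 and 7.62 in HA155 cultures, 8.39, 8.02 and 8.11 in LPA cultures and 8.81, 8.79 and 8.22 in control cultures, with HA155 lowest, a difference of -1.26 ± 0.17, and LPA cultures between HA155 and most of the controls. Xaf1, known as an antagonist of the apoptosis inhibitor XIAP, had 6.26, 6.28 and 6.62 in HA155 cultures, 7.39, 7.04 and 7.25 in LPA cultures and 7.25, 7.26 and 6.94 in control cultures, a difference of -0.76 ± 0.12 with no overlap. Samd9l, an antiviral protein, had 6.15, 6.17 and 6.34 in HA155 cultures, 6.75, 6.81 and 6.95 in LPA cultures and 6.94, 6.71 and 6.49 in control cultures. Parp14, an ADP-ribosyltransferase, had 7.01, 6.85 and 6.88 in HA155 cultures, 7.43, 7.20 and 7.30 in LPA cultures and 7.44, 7.56 and 7.06 in control cultures. Both had every HA155 culture below every control, with changes of -0.49 ± 0.11 and -0.44 ± 0.12 that did not pass.

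The 3 Schlafen genes, which lie close together on chromosome 11, had these levels. Slfn8, with the close copy Slfn9, had 5.92, 5.96 and 5.96 in HA155 cultures, 6.97, 6.65 and 6.86 in LPA cultures and 6.68, 6.55 and 6.24 in control cultures, and HA155 lay below control, at a log2 change of -0.55 ± 0.11. Slfn5 had 10.14, 10.31 and 10.19 in HA155 cultures, 10.90, 10.87 and 10.91 in LPA cultures and 10.42, 10.34 and 10.17 in control cultures, where HA155 and control overlapped and the change with HA155 was -0.10 ± 0.07. Slfn2 had 6.10, 5.87 and 5.78 in HA155 cultures, 6.01, 5.91 and 6.05 in LPA cultures and 5.90, 5.91 and 5.85 in control cultures, all groups overlapping. The remaining members of this role, Parp9, Parp12, Ifi35 and Lgals3bp, had log2 changes of -0.45 to -0.17 with HA155 and did not pass.

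Antigen processing was the role with the smallest differences, with a median HA155 change of -0.06 and 1 of 6 genes called. Ifi30 had 8.64, 8.77 and 8.71 in HA155 cultures, 9.63, 9.39 and 9.64 in LPA cultures and 9.25, 9.29 and 9.18 in control cultures. The 3 groups lay apart in the order HA155, control, LPA, and HA155 was lowest, at a log2 change of -0.53 ± 0.08. The other 5 belong to the peptide route to MHC class I. Psmb8, an immunoproteasome subunit, had 7.17, 6.92 and 7.06 in HA155 cultures, 7.35, 7.55 and 7.30 in LPA cultures and 7.28, 7.20 and 6.97 in control cultures, with HA155 and control overlapping. Tap1, a subunit of the peptide transporter, had 7.55, 7.42 and 7.47 in HA155 cultures, 7.57, 7.57 and 7.66 in LPA cultures and 7.67, 7.75 and 7.57 in control cultures, and the lowest control lay just above the highest HA155 culture. Psmb9, Tap2 and Tapbp (tapasin) had log2 changes of 0.06 ± 0.07, 0.01 ± 0.06 and -0.02 ± 0.07. Psmb9, Tap1, Psmb8 and Tap2 lie side by side on chromosome 17.

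**Figure D2:**
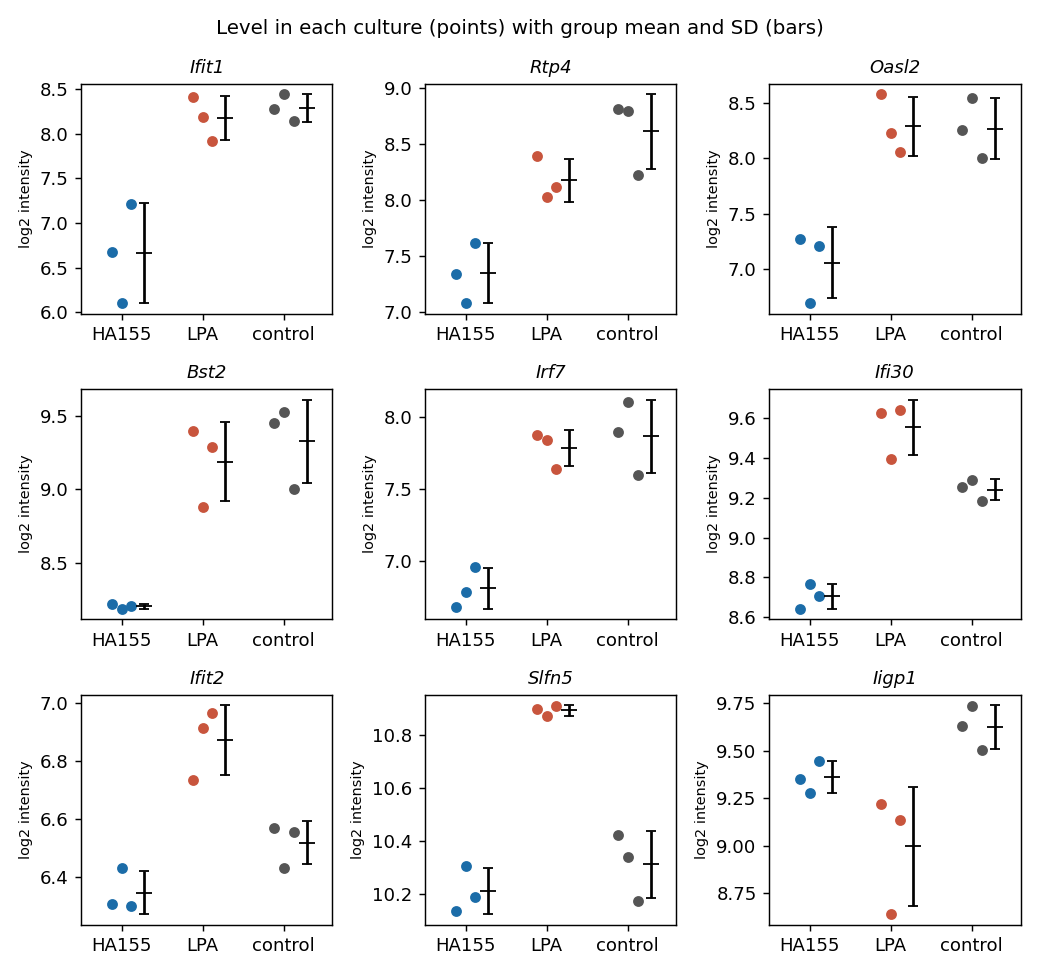
Log2 intensity in each culture (points) with the group mean and SD (bars, n = 3), groups from left to right HA155, LPA and control, for 9 genes, each with its own vertical scale that does not start at 0. Ifit1, Oasl2, Bst2, Irf7 and Rtp4 are low in the HA155 cultures, while Slfn5 and Ifit2 are high and Iigp1 is low in the LPA cultures.

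LPA against control is another contrast than the one behind the choice of the genes, but it shares the control arrays with it and so is not independent of that choice. In the limma fit 5 of 46 rose and 1 fell, beside 12.2% of all genes tested that rose and 10.8% that fell. At an unadjusted p under 0.05, 8 of the 46 passed. The median change was -0.02, beside 0.0052 over all genes tested. Slfn5 rose by 0.58 ± 0.07 (limma adjusted p = 0.000185, n = 3 each), with all LPA cultures above all others. Ifit2 rose by 0.35 ± 0.07 (limma adjusted p = 0.00557) and Ifi30 by 0.31 ± 0.08 (limma adjusted p = 0.0112), in both cases with no overlap between LPA and control. Iigp1 fell by 0.63 ± 0.13 (limma adjusted p = 0.00486), every LPA culture being below every control. The calls of Slfn5, Ifi30 and Iigp1 held in all 18 alternative fits, and that of Ifit2 in the 17 in which it was tested. In the same LPA cultures all 14 tested adipocyte markers fell, and their part in these values was not tested.

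Zc3hav1 rose by 0.21 ± 0.06 (limma adjusted p = 0.0303), a call lost in 7 of 18 alternatives. Slfn8 rose by 0.34 ± 0.11 (limma adjusted p = 0.0474), with LPA 8 inside the control range, a call lost in 11 of the 17 alternatives in which it was tested. Rtp4 had a log2 change of -0.43 ± 0.17 (limma adjusted p = 0.0985), Psmb8 of 0.25 ± 0.10 (limma adjusted p = 0.0989) and Gbp3 of -0.34 ± 0.17 (limma adjusted p = 0.193), none of which passed. Several genes with large HA155 differences had small ones here: Ifit1 had a log2 change of -0.11 ± 0.23, Oasl2 of 0.02 ± 0.18, Ifit3 of -0.0025 ± 0.15, Bst2 of -0.14 ± 0.15 and Irf7 of -0.08 ± 0.12. Rtp4 and Gbp3, with HA155 changes of -1.26 and -0.98, had the larger LPA changes just given. A p that misses the threshold does not show that the levels were equal.

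**Figure D3:**
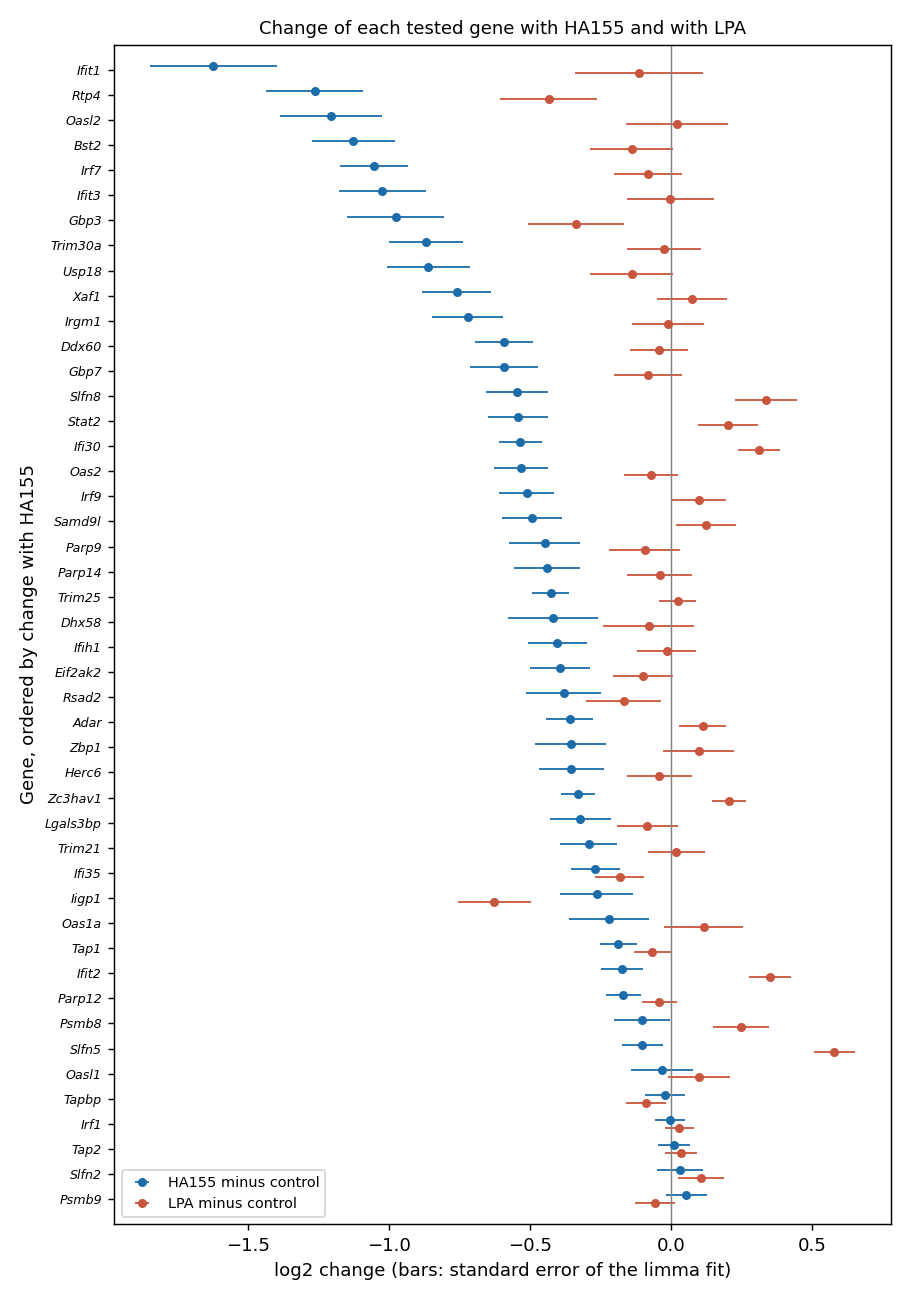
Log2 change of the 46 tested genes with HA155 (blue) and with LPA (red) against control, with bars for the standard error of the fit, ordered by the change with HA155. The HA155 points run from -1.62 to 0.06 and the LPA points from -0.63 to 0.58, with a median of -0.02. Both sets share the control cultures.

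The difference between the treatments themselves shares the HA155 arrays with the choice of the genes and is also a description. Of 46, 29 were higher in LPA than in HA155 cultures and 0 lower, where 13.7% of all genes tested were called higher and 12.4% lower. In 34 of 46 every HA155 culture lay below every LPA culture, as in 20.5% of all genes tested. The median difference was 0.46, and the largest were 1.51 ± 0.23 for Ifit1, 1.23 ± 0.18 for Oasl2, 1.02 ± 0.15 for Ifit3, 0.99 ± 0.15 for Bst2 and 0.97 ± 0.12 for Irf7. Adar, Ifih1, Zbp1, Trim21, Samd9l, Parp14 and Psmb8 were called here, at 0.47, 0.39, 0.45, 0.31, 0.62, 0.40 and 0.35, although not in either comparison with control. Iigp1 ran the other way, at -0.36 ± 0.13, and did not pass. Of the 29 calls, 23 held in every alternative in which the gene was tested. Adar and Samd9l were among those 23, but most of the genes called only here were not. Trim21 was lost in 12 of 18 alternatives, Ifih1, Zbp1 and Parp14 in 4 of 18 each, and Psmb8 in 3 of 18.

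Cultures of 1 group also differed from each other in these genes as a block. Control 3 was the lowest control for 40 of 46 members, where it was for 37.1% of all genes tested, and the highest for 0. Control 2 was the highest control for 30 of 46, against 23.97% of all genes. Among HA155 cultures, HA155 5 was the lowest for 24 of 46, against 28.6% of all genes. Among LPA cultures LPA 7 was the highest for 26, against 23.8%, and LPA 8 the lowest for 29, against 38%. The median member lay 0.18 below the control mean in control 3 and 0.10 above it in control 2. The median SD between cultures over the members was 0.101 with HA155, 0.124 with LPA and 0.179 in control, beside 0.0540, 0.107 and 0.0743 over all genes tested. After each group's mean was removed, the deviations of 43 of 46 members correlated above 0 with the mean of the other members, with a median r of 0.68 over the 9 arrays. These values share arrays and normalization and are a description. The correlation was not computed for other genes, so whether it is particular to the members was not tested.

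**Figure D4:**
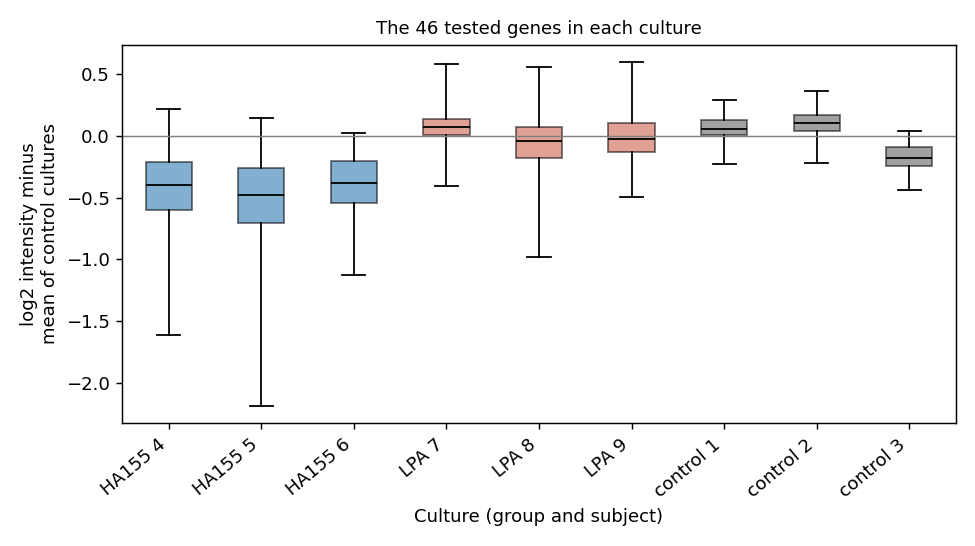
Distribution of the 46 tested genes in each culture (groups from left to right HA155, LPA, control), as log2 intensity minus the mean of the control cultures. Boxes span the quartiles, the line is the median and whiskers reach the lowest and highest gene. The HA155 medians lie at -0.40, -0.48 and -0.38, and control 3 (-0.18) lies below controls 1 (0.05) and 2 (0.10).

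Few genes of any kind were called with HA155 (0.607% of all genes tested higher and 0.427% lower), so a count of 0 in a short list is near that background. Of 5 tested genes in the list of interferons, which also holds the cytokine gene Il27, none was called in any comparison. Of the 14 in that list with a probe set, 9 were below the filter, Ifnb1 and Ifng among them. Ifnb1 averaged 4.55 with HA155, 4.42 with LPA and 4.42 in control. Of 14 receptors and JAK-STAT genes, 0 were called with HA155, with a median change of 0.00061. The type I receptor chains Ifnar1 and Ifnar2 had log2 changes of 0.08 ± 0.08 and 0.03 ± 0.08, the kinases Jak1 and Tyk2 of -0.08 ± 0.06 and -0.04 ± 0.08, and the inhibitor Socs1 of -0.10 ± 0.09.

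With LPA, 6 of these 14 rose against control and 0 fell, beside 12.2% and 10.8% of all genes tested. Jak2 rose by 0.56 ± 0.09 (limma adjusted p = 0.00102), Ifnar2 by 0.41 ± 0.08 (limma adjusted p = 0.0034), Stat3 by 0.34 ± 0.07 (limma adjusted p = 0.00433) and Ifngr2, a chain of the interferon gamma receptor, by 0.29 ± 0.06 (limma adjusted p = 0.00305). Jak1 and Pias1 were the other two. Ifnar1 had a log2 change of 0.04 ± 0.08, Tyk2 of 0.08 ± 0.08 and Socs1 of -0.04 ± 0.09, and none of these passed. Of 16 genes that induce interferon, Ddx58, the sensor RIG-I, was the 1 called with HA155. It had 7.98, 8.10 and 8.10 in HA155 cultures, 8.86, 8.75 and 8.64 in LPA cultures and 8.77, 9.05 and 8.53 in control cultures, all HA155 cultures being lowest, at a log2 change of -0.72 ± 0.11. Sting1, the adaptor of cytosolic DNA sensing, rose with LPA by 0.64 ± 0.09 (limma adjusted p = 0.000324). Mavs, the adaptor of RIG-I and MDA5, fell with LPA by 0.42 ± 0.10 (limma adjusted p = 0.0109). Sting1 and Mavs were the only 2 of the 16 called with LPA against control, no more than the share over all genes tested.

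Of the 46 tested genes in the list of other interferon-stimulated genes, 7 were lower and 2 higher with HA155, beside 0.427% and 0.607% of all genes tested, with a median of -0.12. With LPA 8 rose and 6 fell, near the 12.2% and 10.8% of all genes tested, with a median of 0.08. Cxcl9, a chemokine induced by interferon gamma, had 7.64, 7.56 and 7.64 in HA155 cultures, 7.20, 7.12 and 7.45 in LPA cultures and 8.19, 8.25 and 8.17 in control cultures. It was highest in control and was lower with both treatments, with log2 changes of -0.59 ± 0.08 with HA155 and -0.95 ± 0.08 with LPA. Ifi27l2a, a small membrane protein of the ISG12 family, had 9.16, 9.09 and 9.21 in HA155 cultures, 7.63, 7.32 and 7.64 in LPA cultures and 8.35, 8.50 and 8.29 in control cultures. HA155 cultures were the highest, at a log2 change of 0.78 ± 0.09, and LPA cultures the lowest, at a log2 change of -0.85 ± 0.09. Ly6e, a surface protein that limits virus entry, and Sp100, a component of nuclear bodies, were lower with HA155, at a log2 change of -0.57 ± 0.08 and -0.66 ± 0.10.

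Of 13 further MHC class I and peptide-loading genes tested, 0 were called with HA155, near the share called over all genes, and B2m, the light chain of class I, had a log2 change of 0.05 ± 0.06. With LPA, Psme2 and Psme1, the proteasome activator subunits, fell by 0.56 ± 0.07 (limma adjusted p = 0.00022) and by 0.47 ± 0.12 (limma adjusted p = 0.016), while H2-T10 rose by 0.22 ± 0.07 (limma adjusted p = 0.0366). The 2 falls and 1 rise among these 13 are near the 10.8% and 12.2% of all genes tested that fell and rose with LPA. H2-K1 and H2-D1 were not analysed here. Of 3 MHC class II genes tested, H2-DMa fell with LPA, by 0.32 ± 0.07 (limma adjusted p = 0.00451), and 0 were called with HA155. A single fall in so short a list says little, beside the 10.8% of all genes tested that fell with LPA.

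Markers of other cells that such cultures could hold gave these values beside the interferon genes. Of 16 macrophage markers 9 were tested and 0 were called with HA155 or with LPA, and the mean level of all 16 ran from 5.81 to 5.91 in HA155 cultures, 5.71 to 5.87 in LPA cultures and 5.67 to 5.78 in control cultures. The median HA155 change of the 9 was 0.08, and Lyz2, the largest, had 0.72 ± 0.23 and did not pass. Adgre1, a defining macrophage marker, was below the filter, as were Itgam, Mrc1, Cd163 and the general leukocyte marker Ptprc. Csf1r had a log2 change of 0.07 ± 0.07 with HA155 and -0.02 ± 0.07 with LPA. Of 6 plasmacytoid dendritic cell markers 3 were tested, 0 were called with HA155, and Siglech, Ccr9 and Spib were below the filter. That list ran from 6.43 to 6.47 with HA155, 6.55 to 6.65 with LPA and 6.45 to 6.51 in control. Tcf4 and Il3ra rose with LPA, by 0.41 ± 0.07 and 0.38 ± 0.08, where 12.2% of all genes tested rose. Both were bright in control too, with means of 9.3 and 8.6. Ly6d, the other gene tested, had a log2 change of 0.03 ± 0.09 with LPA and did not pass.

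Lymphocyte and NK markers ran from 4.59 to 4.62 with HA155, 4.46 to 4.64 with LPA and 4.62 to 4.66 in control, with 2 of 10 tested and 0 called. Endothelial markers ran from 6.05 to 6.14 with HA155, 6.15 to 6.27 with LPA and 6.03 to 6.17 in control. Of the 5 tested, 0 were called with HA155 and 2, Eng and Tek, were higher with LPA, beside 12.2% of all genes tested. Adipocyte markers ran from 11.29 to 11.35 with HA155, 10.00 to 10.01 with LPA and 11.15 to 11.20 in control. With HA155, 3 of 14 were higher (Cidec, Lep and Cd36), and with LPA all 14 fell. The part of any of these cell types in the values of the interferon genes was not tested.

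**Figure D5:**
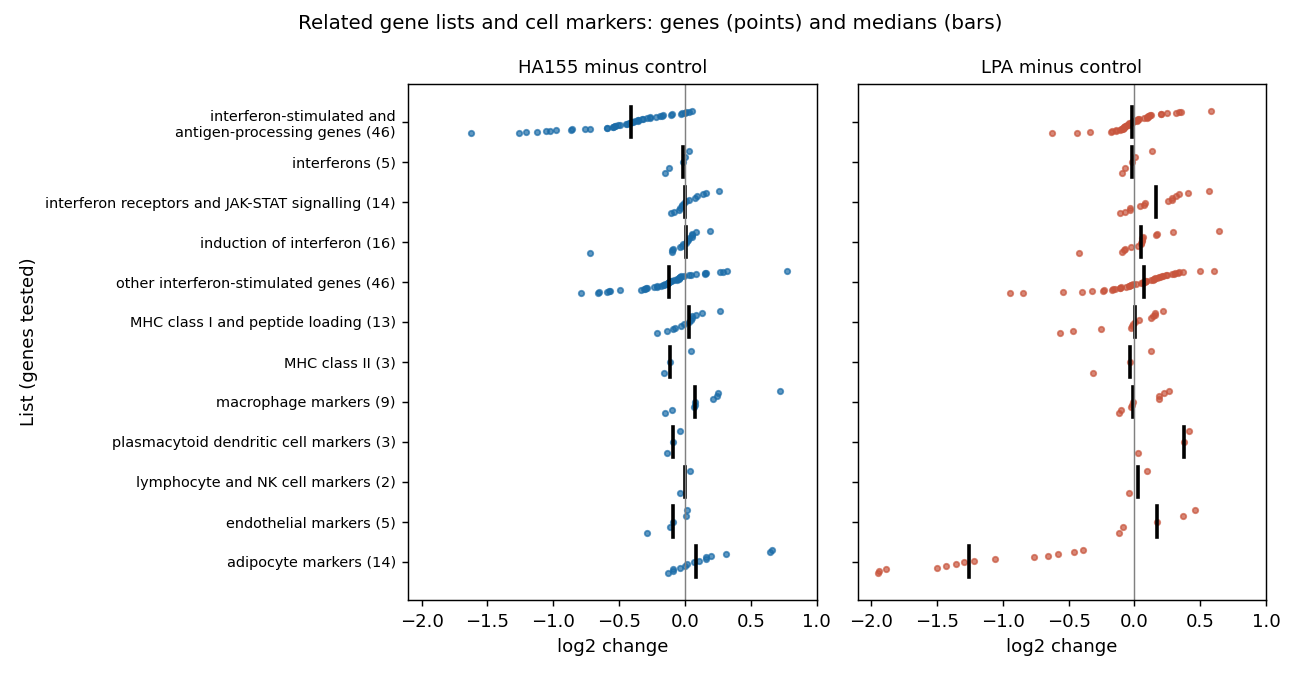
Log2 change of each tested gene (points) with its list median (bar) for the interferon-stimulated and antigen-processing genes and 11 related or marker lists, with HA155 (left panel) and LPA (right panel) against control. The left panel is the contrast by which the members were selected, so the place of their median, -0.41, among the lists is only a description. The other interferon-stimulated genes have a median of -0.12 there. In the right panel the adipocyte markers stand lowest, at -1.25.

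Outside the 54, the genes whose pattern over the 9 arrays was most like the mean of the tested members were Ddx58 (Pearson r = 0.96), Dtx3l (0.95), Ldb2 (0.95), Ly6e (0.95), Uba7 (0.92), Agtr2 (0.92), Sp100 (0.92), Rnf213 (0.91), Phf11d (0.91) and Ckb (0.91). These are the 10 highest of all genes tested, each r being over 9 arrays and carried in part by the groups. Ldb2, a LIM-domain-binding cofactor, had 7.80, 7.76 and 7.82 in HA155 cultures, 8.43, 8.49 and 8.46 in LPA cultures and 8.42, 8.42 and 8.28 in control cultures. Agtr2, the type 2 angiotensin receptor, had 9.43, 9.32 and 9.36 in HA155 cultures, 9.94, 9.98 and 10.02 in LPA cultures and 9.92, 9.85 and 9.84 in control cultures. For both the HA155 cultures lay below all others, with changes of -0.58 ± 0.06 and -0.50 ± 0.06 with HA155 and 0.09 ± 0.06 and 0.11 ± 0.06 with LPA.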

How the data were processed

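Each of the 9 arrays came as 1 column of linear intensities, as deposited, computed by RMA (background correction, quantile normalization, probe summary) per the submitters' processing notes, with the version not given in the sources used here. Quantile normalization hides any shift common to most genes, and dim or very bright probe sets understate a change. The analysis used log2 of the deposited values without an offset. Of 35432 probe sets, 21706 carried a single symbol in the platform annotation, 1605 carried several and 12121 were unlisted. A gene's brightest probe set was used, and genes whose mean fell below the 40th percentile of probe sets (5.59 log2, intensity 48.2) were not tested.

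The 13335 genes left were fitted together in limma 3.58.1 under R 4.3.3 (lmFit, then eBayes) with 3 groups and 6 residual degrees of freedom. Tests were two-sided, and p-values were adjusted over all genes of a comparison by Benjamini-Hochberg, with 0.05 as the threshold. Precision is set by the few arrays, with a median standard error of 0.0763 per log2 change; 3 cultures against 3 allow an exact p of 0.1 at best. No batch is named in the labels, so batch and treatment cannot be told apart.

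The members, the 11 related and marker lists (129 of 207 genes tested) and the rule for named genes were chosen with earlier results of these data known. The rule took every culture's value for members called in any comparison and for the largest changes of the others, up to 4 genes of smallest p per list and comparison plus a set of pathway and marker genes, and the 10 most alike genes. RIG-I is listed under its older symbol Ddx58. Alternatives changed the filter, probe-set rule, normalization, offset, variance estimate, array weights or left out each array.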

Additional observations from a re-analysis of the deposited data

How the results depend on the processing

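No paired analysis was possible because the subject numbers of the groups do not overlap. With each array left out in turn, the members called for HA155 against control ran from 3 (without control 2) to 23 (without control 3), with 9 without control 1, 7 without HA155 4, 6 without HA155 5, 12 without HA155 6, 16 without LPA 7, 20 without LPA 8 and 16 without LPA 9, beside 20 with all arrays. The other alternatives gave 14 (no filter) to 26 (array weights). The median HA155 change stayed between -0.49 and -0.33 in all 18 alternatives. For LPA against control the calls ran from 4 to 7 and the median from -0.10 to 0.03, changing sign within the spread. For LPA against HA155 the calls ran from 24 to 31 and the median from 0.40 to 0.49. Some calls held in every alternative in which the gene was tested. These were 3 of 20 for HA155 against control, 4 of 6 for LPA against control and 23 of 29 for LPA against HA155. No called member changed direction. Members near the filter have signal close to background, which limits what can be seen for Mx1, Mx2, Oas3 and Cmpk2. It also limits Ddx60 and Rsad2, whose HA155 means lay below the filter, and Oas2, whose HA155 mean lay just above it.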
